A study of Homo sapiens with 6 samples.

Results

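The RNAs described here are the expressed long non-coding RNAs that carry a LINC name, a placeholder symbol given to a long intergenic non-coding RNA before a function is assigned. They are the rows of the gene count table whose name is LINC followed only by digits and whose raw counts sum to at least 100 over the 6 libraries. Of 58735 rows, 1885 carry such a name, 732 of these had at least 1 count, and 174 reached the sum of 100. The members were thus chosen by their summed counts, which ran from 103 for LINC01088 to 8316 for LINC02407. LINC01088 (103) and LINC02246 (104) lay just inside the threshold, and LINC01179, LINC01010 and LINC00313, each with 98, lay just outside it. All 174 passed the filter on low counts.

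The libraries came from RPE-1, an immortalized line of human retinal pigment epithelium. These cells express CETN2, a centriole protein, tagged with GFP, and carry PLK4, the kinase that starts centriole duplication, under the rtTA doxycycline-inducible promoter. Cells of the siSON group (3 libraries) were transfected with an siRNA against SON, those of the siControl group (3 libraries) with a scramble siRNA, and both groups received doxycycline (1 µg/mL) to switch on PLK4, so no library lacks induction. Nothing in the labels says whether the replicates were separate cultures, and p-values therefore measure the spread between these libraries, which may be technical.

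Long intergenic non-coding RNAs are transcribed by RNA polymerase II like messenger RNAs, and most are capped, spliced and polyadenylated. They are usually less abundant and more restricted to particular cell types than messenger RNAs, and many start close to a coding gene from a shared, divergent promoter. SON is a large protein of nuclear speckles, the nuclear bodies that store splicing factors, and it is known for helping the spliceosome to remove introns with weak splice sites. Because the kit was made for messenger RNA, transcripts without a poly(A) tail may be under-represented.

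Totals ran from 54572365 to 69764836 counts per library. The members together took 0.0580% to 0.0621% of the counts in siControl and 0.0411% to 0.0429% in siSON. Most markers of the line were abundant in siControl: VIM, an intermediate filament of mesenchymal cells, had 7154 ± 608 CPM (CPM here is a gene's count scaled to a common library total, with TMM factors), and the epithelial keratin KRT8 had 594 ± 36.9 CPM (SD, n = 3 per group), whereas the keratin KRT19 had 0.158 ± 0.118 CPM (SD, n = 3). The pigment epithelium regulators MITF and OTX2 were present at 21.7 ± 0.517 and 19.9 ± 0.324 CPM (SD, n = 3 per group). The visual cycle genes RPE65 and RLBP1 were at or under 0.144 CPM in both groups, and the pigment enzyme gene TYR had 0 counts, so the labelled tissue of origin was only partly reflected. Among markers of other cell types, CD3E, SOX10 and RBFOX3 had 0 counts, and the highest was the leukocyte gene PTPRC, with 1.44 ± 0.468 CPM in siControl and 0.292 ± 0.0174 CPM in siSON (SD, n = 3 per group), whose part in the results was not tested. SON itself had 295, 313 and 284 CPM in siControl and 68.0, 70.0 and 65.0 CPM in siSON. The log2 ratio of siSON to siControl (the fold change on the log2 scale) for SON was -2.14, with an SE of 0.06 and an edgeR adjusted p of 6.78e-10.

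Of the 174 LINC RNAs, 123 were called changed by edgeR's quasi-likelihood test at a Benjamini-Hochberg adjusted p under 0.05 over all genes tested. That is a share of 70.7%, beside 71.7% of all 16591 genes tested, a share close to that background. The directions were uneven: 93 fell and 30 rose, whereas 36.5% of all genes tested fell and 35.2% rose. Among 13008 protein-coding genes, 77.4% were called, 37.1% lower and 40.3% higher. The median log2 ratio was -0.70 for the LINC RNAs and -0.03 for all genes tested. A 2-fold or larger fall was called for 75 of them (20.5% of all genes) and a 2-fold or larger rise for 16 (8.72% of all genes). CPM did not overlap between the groups for 129 of the 174, beside 75.1% of all genes. In 96 of these siSON was lower (38.2% of all genes) and in 33 it was higher (36.9% of all genes). In a bulk library, fewer cells that hold an RNA and less of that RNA per cell cannot be told apart.

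**Figure D1:**
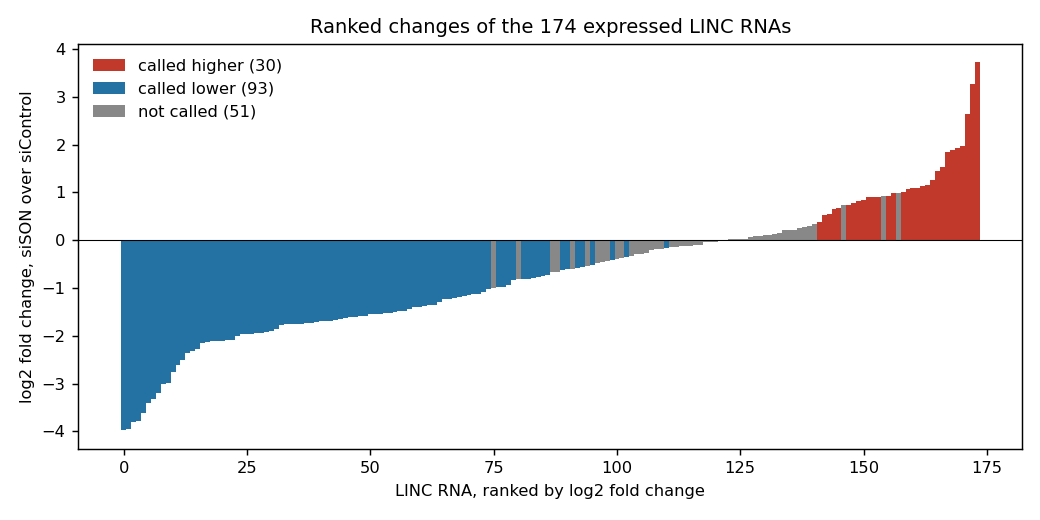
Log2 fold change, siSON over siControl (vertical axis), of each of the 174 LINC RNAs ranked from lowest to highest (horizontal axis), with 1 bar per RNA coloured by its edgeR call. The 93 RNAs called lower reach down to -3.98 and the 30 called higher reach up to 3.72.

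The ranked plot shows that the falls reached further as a group than the rises. The median log2 ratio was -1.61 over the 93 that fell and 1.04 over the 30 that rose. The split differed with the normalization used. Under cyclic loess normalization, 71 were called lower and 40 higher, with a median of -0.27 beside 0.04 for all genes, and under library size alone the call was 100 lower and 22 higher, with a median of -0.90 beside -0.22. Cyclic loess moved the log2 ratios of all genes by a median of 0.14 and library size alone moved them by -0.20. The median of the LINC RNAs went from -0.70 to -0.27 under cyclic loess and to -0.90 under library size alone. The rule on summed counts favours an RNA in the group where it is high: 42 members had under 50 counts over the siSON libraries, 34 of them called lower, and 7 had under 50 over the siControl libraries, 6 of them called higher.

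The LINC RNAs were low-abundance transcripts. Mean CPM over the groups was under 1 for 85 of them and at least 10 for 14. Of 2707 protein-coding genes with an average log2 CPM below 2, 1324 were called lower and 432 higher, with a median log2 ratio of -0.66, so calls lower were more frequent among low coding genes than among all coding genes (48.9% against 37.1%). The 137 LINC RNAs below that level had 74 called lower and 22 higher, with a median of -0.80. Among the 37 at or above it, 19 were called lower and 8 higher, with a median of -0.18. The 652 other rows of the lincRNA biotype that were tested were called in 56.3% of cases, 280 of them lower (42.9%) and 87 higher (13.3%), with a median of -0.64. The share called lower among LINC RNAs was 54.0% below that level and 51.4% at or above it. The part of expression level in the direction of the LINC RNAs was not tested.

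**Figure D2:**
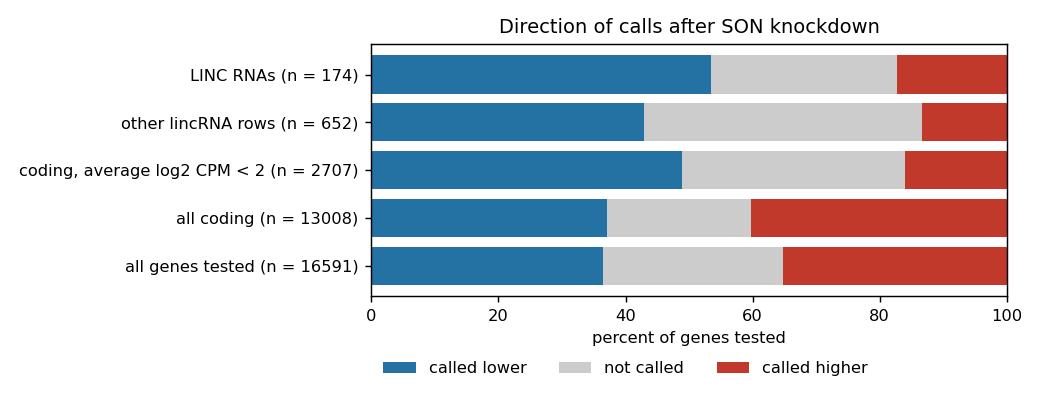
Percent of genes tested (horizontal axis) that were called lower, not called or called higher in siSON, for the LINC RNAs, the other lincRNA rows, coding genes with an average log2 CPM below 2, all coding genes and all genes tested. Calls lower outnumber calls higher in the first 3 sets (93 against 30, 280 against 87 and 1324 against 432), and the last 2 sets are close to even.

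**Figure D3:**
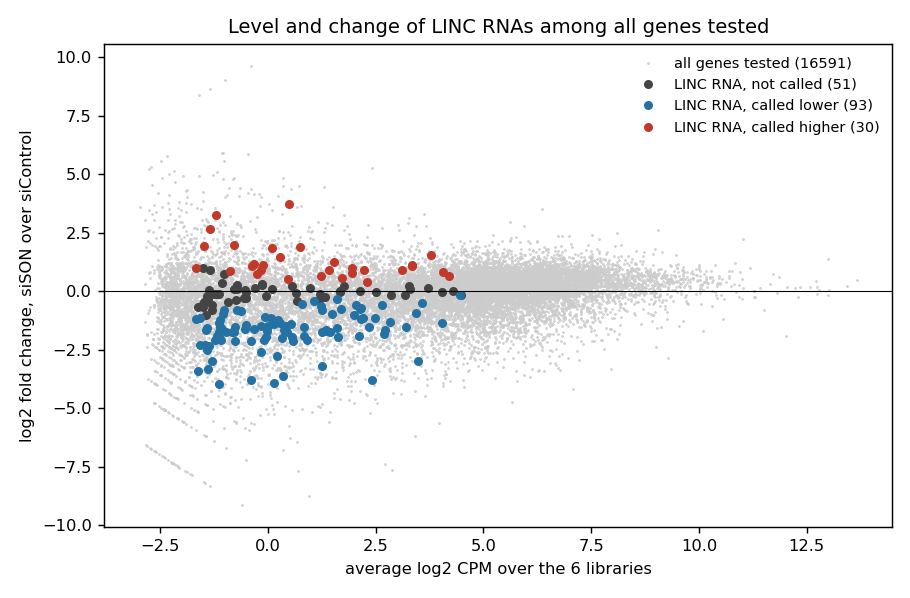
Log2 fold change (vertical axis) against average log2 CPM over the 6 libraries (horizontal axis) for 16591 genes tested (grey) and the 174 LINC RNAs, coloured by call. The LINC RNAs lie in the lower part of the range of levels, and those called lower outnumber those called higher, 93 to 30.

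The plot of level against change places the LINC RNAs at the left of all genes. The 20 members with the largest changes are given next, 10 in each direction, taken among called members whose groups did not overlap and whose average log2 CPM was -1 or more. Positions are those of GRCh38 in GENCODE release 29.

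The largest rise was that of LINC02019 (ENSG00000273356; chromosome 3, 50669989 to 50672048, plus strand, 2 exons). Its siControl libraries gave 0.229, 0.142 and 0.241 CPM and its siSON libraries 3.76, 2.44 and 1.99 CPM, so every siSON library lay far above every siControl library. The log2 ratio was 3.72 (SE 0.32, edgeR adjusted p 1.22e-06), a 13.2-fold rise. Its closest coding gene by start, DOCK3, a guanine nucleotide exchange factor whose start lies 5252 bases away, rose from 2.35 ± 0.203 to 5.46 ± 0.698 CPM (SD, n = 3 per group; log2 ratio 1.22, edgeR adjusted p 1.65e-05).

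LINC00641 was the most abundant of the 10 risers (ENSG00000258441; chromosome 14, 21200079 to 21206900, minus strand, 2 exons). Its CPM was 7.25, 7.83 and 6.21 in siControl and 23.8, 19.5 and 18.2 in siSON, with no overlap. That is a log2 ratio of 1.53 (SE 0.12, edgeR adjusted p 6.48e-07). LINC00888 (ENSG00000240024; chromosome 3, 183447608 to 183456013, plus strand) rose as evenly, from 6.75, 6.17 and 6.44 CPM to 14.1, 13.4 and 14.0 CPM. The log2 ratio of LINC00888 was 1.10 (SE 0.09, edgeR adjusted p 7.60e-07). The gene holds the small nucleolar RNAs SNORA63D and SNORA63E on its own strand, and the table files it as a transcribed pseudogene.

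LINC00672 (ENSG00000263874; chromosome 17, 38925168 to 38929384, plus strand, 2 exons), now named LASP1NB for its place beside LASP1, had 0.717, 0.755 and 0.696 CPM in siControl and 2.88, 2.75 and 2.42 CPM in siSON. All siSON values were more than 3 times the siControl values, and the log2 ratio was 1.89 (SE 0.18, edgeR adjusted p 3.10e-06). It is the only member that the table files as protein-coding. LASP1 itself, an actin-binding adaptor chosen after its values were seen, rose from 365 ± 6.96 to 607 ± 9.50 CPM (SD, n = 3 per group; log2 ratio 0.73, edgeR adjusted p 7.08e-08).

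LINC00460, an RNA often reported at raised levels in carcinomas (ENSG00000233532; chromosome 13, 106374477 to 106384315, plus strand, 7 exons), went from 0.487, 0.425 and 0.509 CPM to 1.65, 2.02 and 1.44 CPM. The rise was 1.84 on the log2 scale (SE 0.24, edgeR adjusted p 3.26e-05). LINC01252 (chromosome 12, 11548030 to 11590369) went from 0.172, 0.283 and 0.254 CPM to 1.09, 0.679 and 1.00 CPM, a log2 ratio of 1.96 (SE 0.34, edgeR adjusted p 0.000311). For LINC01094 (chromosome 4, 78645903 to 78682699) the siControl values of 0.803, 0.582 and 0.589 CPM lay below the siSON values of 2.15, 1.32 and 1.89 CPM, with a log2 ratio of 1.44 (SE 0.26, edgeR adjusted p 0.000369). Both were low, with 35 to 63 counts per siSON library for LINC01252 and 68 to 125 for LINC01094, and in neither did the groups overlap.

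LINC01561 (chromosome 10, 120597949 to 120600124, 1 exon) had 1.76, 1.81 and 1.57 CPM in siControl and 5.00, 3.94 and 3.38 CPM in siSON, a log2 ratio of 1.26 (SE 0.18, edgeR adjusted p 5.88e-05). It is the only unspliced RNA among the 10. LINC00601 (chromosome 10, 126413869 to 126421879) rose from 0.516, 0.645 and 0.589 CPM to 1.15, 1.38 and 1.30 CPM (log2 ratio 1.13, SE 0.23, edgeR adjusted p 0.00108). LINC01004 (chromosome 7, 104950315 to 105013044) rose from 0.559, 0.456 and 0.455 CPM to 1.55, 0.969 and 0.767 CPM (log2 ratio 1.164, SE 0.31, edgeR adjusted p 0.00564). Its siSON libraries were the most spread of these risers, yet all lay above siControl.

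The closest coding gene could be tested for 6 of the 10 risers, and it rose for 5 of them, in data where 40.3% of coding genes rose. ANXA3, an annexin near LINC01094, rose by 1.15 on the log2 scale (SE 0.13, edgeR adjusted p 9.62e-06). PLPP4, a lipid phosphatase near LINC01561, rose by 0.96 (SE 0.08, edgeR adjusted p 6.07e-07), and ADAM12, a metalloprotease near LINC00601, rose by 0.34 (SE 0.05, edgeR adjusted p 0.000174). EFNB2, the ephrin gene nearest to LINC00460, rose by 0.43 (SE 0.06, edgeR adjusted p 3.21e-05). KMT2E, a chromatin regulator whose start lies 1135 bases from that of LINC01004, fell, with a log2 ratio of -0.21 (SE 0.08, edgeR adjusted p 0.0265). The closest coding genes of LINC01252, LINC00672, LINC00641 and LINC00888 (PRB2, FBXO47, OR5AU1 and MCF2L2) were too low to test, as were KLF14 and SRL beside LINC00513 and LINC01569 among the falls described next.

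The most deeply counted of the 10 largest falls was LINC01583 (ENSG00000259518; chromosome 15, 82088594 to 82097694, plus strand, 6 exons). The siControl libraries gave 25.8, 16.9 and 15.5 CPM and those of siSON 2.91, 1.90 and 2.498 CPM, and replicate 1 was the highest library of both groups. The log2 ratio was -2.99 (SE 0.22, edgeR adjusted p 1.05e-06). MEX3B, an RNA-binding protein gene whose start lies 42453 bases away, fell in the same libraries from 29.4 ± 4.31 to 8.25 ± 0.615 CPM (SD, n = 3 per group; log2 ratio -1.83, edgeR adjusted p 8.68e-08).

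LINC01629 had nearly equal levels in the siControl libraries (ENSG00000258602; chromosome 14, 76959638 to 76965802, plus strand, 3 exons). Its siControl values were 9.62, 9.52 and 9.65 CPM and its siSON values 0.500, 0.950 and 0.649 CPM, a 13.8-fold fall. The log2 ratio of -3.78 (SE 0.19) had an edgeR adjusted p of 1.69e-08, the smallest among the 174. IRF2BPL, the closest coding gene, gave 135 ± 2.94 CPM in siControl and 134 ± 5.46 CPM in siSON (SD, n = 3 per group; log2 ratio -0.01, SE 0.05, edgeR adjusted p 0.836).

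LINC00513 (ENSG00000233559; chromosome 7, 130853720 to 130928649, plus strand, 5 exons) gave 1.86, 1.35 and 2.36 CPM in siControl against 0.0345, 0.291 and 0.0393 CPM in siSON. The siSON counts were 2, 15 and 2. Its log2 ratio was -3.94 (SE 0.53, edgeR adjusted p 5.27e-05), and -5.58 without siSON replicate 2, the library with 15. The span of LINC00513 holds the microRNA genes MIR29A and MIR29B1 on the other strand. LINC01569 (ENSG00000262468; chromosome 16, 4243943 to 4253817, minus strand) was nearly as low, with 1.26, 1.15 and 1.34 CPM against 0.0689, 0.116 and 0.0787 CPM, or 4, 6 and 4 counts in siSON. LINC01569 had a log2 ratio of -3.81 (SE 0.33, edgeR adjusted p 1.31e-06).

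LINC00106 (ENSG00000236871; chromosome X, 1396427 to 1399402, plus strand, in the pseudoautosomal region) had 2.74, 2.501 and 1.31 CPM in siControl and 0.138, 0.194 and 0.197 CPM in siSON (log2 ratio -3.62, SE 0.36, edgeR adjusted p 4.00e-06). SLC25A6, an ADP/ATP carrier gene 3703 bases away by start, rose by 0.22 (SE 0.05, edgeR adjusted p 0.00142). LINC00452 (ENSG00000229373; chromosome 13, 113888306 to 113923512, plus strand, 8 exons) fell from 5.29, 3.38 and 3.55 CPM to 0.586, 0.252 and 0.472 CPM, a log2 ratio of -3.20 (SE 0.29, edgeR adjusted p 1.65e-06). The groups were far apart for both RNAs, although siControl replicate 3 of LINC00106 was well below the other two.

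The rest of the 10 largest falls were LINC01537, LINC01410, LINC01977 and LINC01828. LINC01537 (chromosome 11, 72570660 to 72573229) had 2.04, 1.62 and 1.85 CPM against 0.172, 0.291 and 0.354 CPM (log2 ratio -2.76, SE 0.28, edgeR adjusted p 4.89e-06). PDE2A, a cyclic nucleotide phosphodiesterase gene near it, fell by 1.23 (SE 0.20, edgeR adjusted p 0.000206). LINC01410 (chromosome 9, 62801461 to 62813486) had 1.52, 1.49 and 1.164 CPM against 0.207, 0.291 and 0.177 CPM (log2 ratio -2.62, SE 0.29, edgeR adjusted p 9.53e-06). Its count is uncertain, because 2879 bases of its transcript are at least 95% identical to a transcript of CR786580.1.

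LINC01977 (chromosome 17, 79823452 to 79827704) fell from 0.874, 1.09 and 0.616 CPM to 0.241, 0.136 and 0.197 CPM (log2 ratio -2.14, SE 0.37, edgeR adjusted p 0.000297). LINC01828 (chromosome 2, 67086446 to 67311439, 9 exons) fell from 1.22, 0.928 and 1.20 CPM to 0.276, 0.175 and 0.315 CPM (log2 ratio -2.12, SE 0.31, edgeR adjusted p 7.67e-05). In siSON these RNAs had 7 to 18 counts per library, so their remaining levels are imprecise, while the groups did not overlap for any of them.

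**Figure D4:**
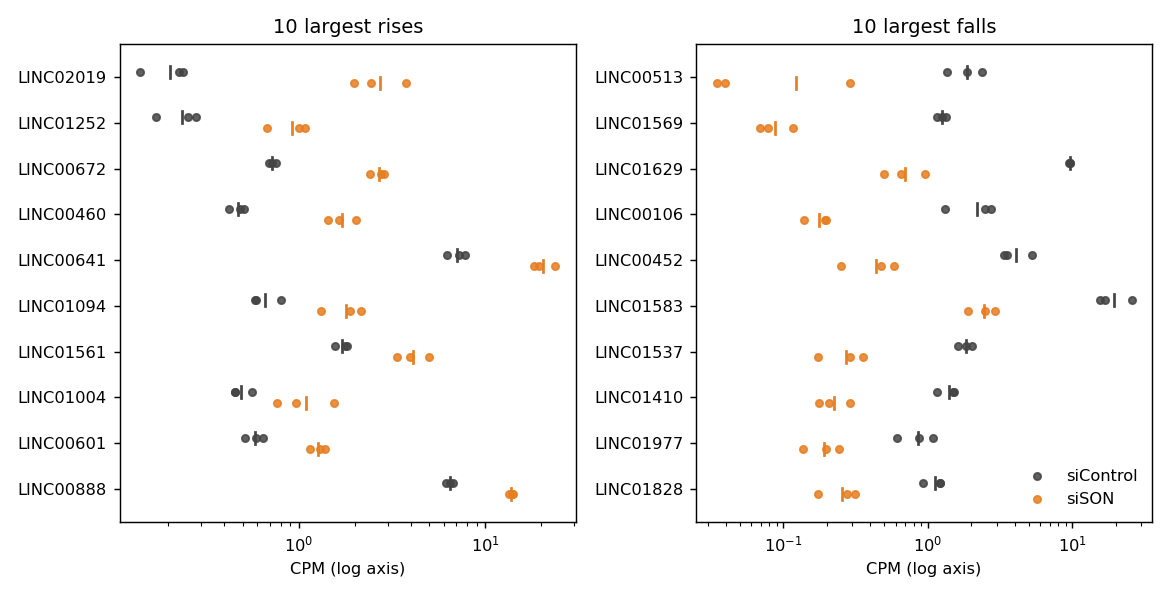
CPM (horizontal log axis) in each siControl library (grey) and each siSON library (orange) for the 10 largest rises (left) and the 10 largest falls (right), with 1 point per library and a vertical line at the group mean. In none of the 20 RNAs do the points of the groups overlap, and LINC00513 has 1 siSON library (0.291 CPM) above the other 2.

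The plot of CPM by library shows the separation of the groups in each of the 20. To show what the start of a strongly changed LINC RNA looks like, the RefSeq promoter windows (GRCh38.p14, 250 bases before the start and 50 from it on) of LINC01629, the fall with the smallest adjusted p, and of the most abundant rise, LINC00641, are printed here 5′ to 3′ on the strand of the gene. Capitals mark matches, on either strand, to GGGCGG, the GC box, to CCAAT and to TATAAA. The windows are chr14:76959388-76959687 (plus strand) and chr14:21206851-21207150 (minus strand).
LINC01629: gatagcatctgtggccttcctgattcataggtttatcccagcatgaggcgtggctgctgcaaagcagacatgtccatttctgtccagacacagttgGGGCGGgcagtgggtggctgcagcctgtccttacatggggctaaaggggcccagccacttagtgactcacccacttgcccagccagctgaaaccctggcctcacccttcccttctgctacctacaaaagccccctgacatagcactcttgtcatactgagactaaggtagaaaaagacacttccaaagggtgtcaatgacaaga
LINC00641: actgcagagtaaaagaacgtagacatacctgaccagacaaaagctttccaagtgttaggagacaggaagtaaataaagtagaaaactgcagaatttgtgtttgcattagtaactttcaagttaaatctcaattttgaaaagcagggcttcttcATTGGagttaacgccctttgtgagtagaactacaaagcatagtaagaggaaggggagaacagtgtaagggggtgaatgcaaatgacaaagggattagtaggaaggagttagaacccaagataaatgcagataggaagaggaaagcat

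LINC01629 held 1 GC box, and LINC00641 held ATTGG, the reverse complement of CCAAT. Neither window was rich in CpG, with an observed over expected CpG ratio of 0.0945 for LINC01629 and 0.197 for LINC00641, beside a median of 0.579 over all 35116 RefSeq promoters. RefSeq promoters were matched by symbol for 109 of the 174, with no limit on distance. The windows of LINC01629 and LINC00641 lie at the GENCODE start of the counted gene. Some others lie far from it, 135265 bases for LINC02615 and 128556 for LINC01435. Such windows may not be the promoters of the RNAs counted, and the values below include them. The median ratio was 0.257 over the 16 matched risers, 0.551 over the 64 that fell and 0.268 over the 29 not called. GGGCGG was found in 31.2% of risers, 43.8% of those that fell and 45.0% of all promoters. CCAAT was found in 8 of the 16 risers, 48.4% of those that fell and 34.6% of all promoters, and TATAAA in 25.0%, 9.38% and 11.5% of the same sets. The sets are small, and a match is a description of the letters only.

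For 24 of the 174, a gene on the other strand started within 1000 bases and pointed away, without overlap at the starts. Of these partners, 10 were protein-coding. Opposite-strand genes whose first bases overlap were not counted, such as LINC00526 with LINC00667 and LINC01116 with LINC01117. Coding genes outside this definition can start as near. ERCC6L2, which fell (log2 ratio -1.28), starts 276 bases from LINC00476, which rose (0.98). CXorf40B and CNOT2, which rose (0.19 and 0.27), start 183 and 366 bases from LINC00894 and LINC01481, which fell (-1.68 and -0.55). None of the 10 LINC RNAs whose coding partner met the definition rose, 7 fell and 3 were not called. Of all 174, 17.2% rose and 53.4% fell, and 10 are too few to compare with those shares. With a non-coding partner, LINC00839 and LINC00674 rose. Of the 7 coding partners of those that fell, 3 rose, 3 fell and 1 was not called, beside 40.3% higher and 37.1% lower among all coding genes. The next promoters show 2 cases in which the RNAs of one divergent pair moved in opposite directions, and the capitals mark the stretch from the GENCODE start of the coding gene to that of the LINC RNA. These windows are chr21:45287802-45288101 (plus strand) for LINC00205 and POFUT2, and chr21:44939864-44940163 (minus strand) for LINC01547 and FAM207A, both GRCh38.p14 and read on the strand of the LINC RNA.
LINC00205: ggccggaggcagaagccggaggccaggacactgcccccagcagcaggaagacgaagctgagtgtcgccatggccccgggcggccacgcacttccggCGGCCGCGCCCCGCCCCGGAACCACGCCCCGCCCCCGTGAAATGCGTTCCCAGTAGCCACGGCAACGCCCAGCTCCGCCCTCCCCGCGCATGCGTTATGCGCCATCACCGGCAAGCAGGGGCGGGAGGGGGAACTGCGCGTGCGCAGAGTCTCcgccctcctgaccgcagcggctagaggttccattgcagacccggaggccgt
LINC01547: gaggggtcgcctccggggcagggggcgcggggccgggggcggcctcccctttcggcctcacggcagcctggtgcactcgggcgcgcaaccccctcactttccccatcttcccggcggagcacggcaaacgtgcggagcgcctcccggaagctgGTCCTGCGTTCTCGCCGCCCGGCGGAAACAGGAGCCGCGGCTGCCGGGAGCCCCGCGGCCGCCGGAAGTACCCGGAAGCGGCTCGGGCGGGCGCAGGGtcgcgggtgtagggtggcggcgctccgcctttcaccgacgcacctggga

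Only 152 bases separate the starts of LINC00205 and POFUT2, and 97 bases those of LINC01547 and FAM207A, with GC contents of 72.3% and 76.3% over the windows. LINC00205 (ENSG00000223768; chromosome 21, 45288050 to 45297806, plus strand, 4 exons) gave 14.8, 14.2 and 13.05 CPM in siControl and 5.98, 7.15 and 8.93 CPM in siSON. Its log2 ratio was -0.93 (SE 0.13, edgeR adjusted p 7.61e-05). POFUT2, an enzyme that adds fucose to thrombospondin repeats, rose from 46.2 ± 0.966 to 177 ± 8.72 CPM (SD, n = 3 per group; log2 ratio 1.93, SE 0.06, edgeR adjusted p 1.07e-09).

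LINC01547 (ENSG00000183250; chromosome 21, 44932814 to 44939913, minus strand, 4 exons) had 1.161, 1.04 and 0.669 CPM against 0.327, 0.233 and 0.354 CPM, a log2 ratio of -1.64 (SE 0.33, edgeR adjusted p 0.000898). FAM207A rose from 16.01 ± 1.51 to 36.7 ± 2.12 CPM (SD, n = 3 per group; log2 ratio 1.19, SE 0.09, edgeR adjusted p 2.78e-07). Another such pair was LINC01089 with SETD1B, the starts of which are 274 bases apart. LINC01089 (ENSG00000212694; chromosome 12, 121795267 to 121803906, minus strand), also known as LIMT, had 7.50, 8.97 and 5.93 CPM in siControl and 2.83, 2.87 and 1.91 CPM in siSON, a log2 ratio of -1.55 (SE 0.19, edgeR adjusted p 2.20e-05). SETD1B, a histone H3 lysine methyltransferase, rose from 58.9 ± 3.87 to 153 ± 9.99 CPM (SD, n = 3 per group; log2 ratio 1.38, SE 0.07, edgeR adjusted p 1.83e-08). LINC01089 overlaps RHOF on its own strand, so some of its reads cannot be assigned. The groups did not overlap for any of these 3 LINC RNAs or their partners, and the pairs were chosen after their values were seen.

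In the other 3 pairs in which both RNAs were called, both fell. LINC01521 had a log2 ratio of -1.97 (SE 0.35, edgeR adjusted p 0.000357) and its partner PATZ1, a zinc finger transcription factor, one of -0.78 (SE 0.07, edgeR adjusted p 2.14e-06). LINC01534 and the zinc finger gene ZNF567 gave -2.31 (edgeR adjusted p 0.00193) and -0.44 (edgeR adjusted p 0.00595). LINC01560 and ZNF41 gave -0.80 (edgeR adjusted p 0.0384) and -0.71 (edgeR adjusted p 0.000202). LINC00982, which fell by 1.77, shares its promoter region with PRDM16, which was not called (log2 ratio -0.03, edgeR adjusted p 0.840).

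**Figure D5:**
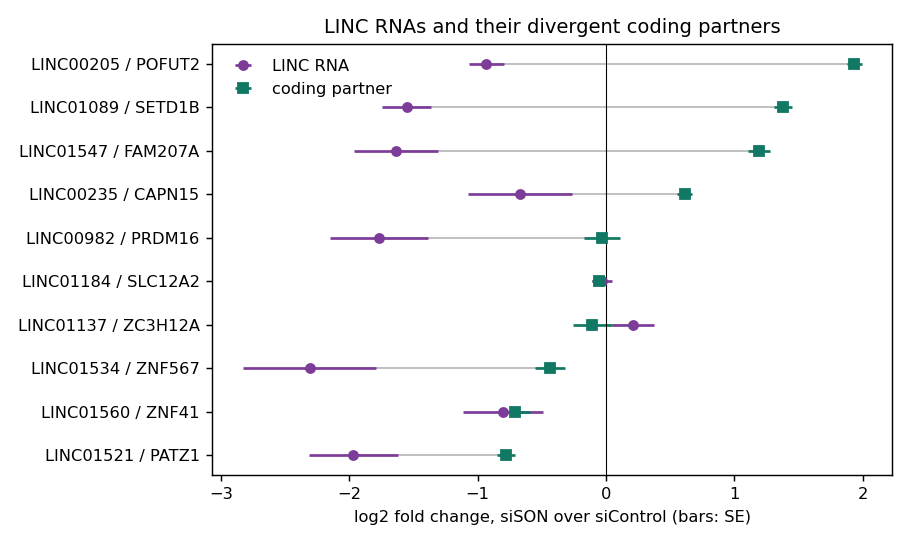
Log2 fold change, siSON over siControl (horizontal axis, bars are SE), of 10 LINC RNAs (purple circles) and their coding partners (green squares), with 1 pair per row. The partners start within 1000 bases in the other direction, without overlap at the starts. LINC00205, LINC01089 and LINC01547 lie left of 0 and their partners right of 0, whereas LINC01521, LINC01534 and LINC01560 lie left of 0 with their partners.

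The plot of divergent pairs shows both arrangements. Over all members, the closest coding gene by start could be tested for 140, giving 140 pairs with 135 distinct genes. In 24 pairs with a LINC RNA that rose, the coding gene rose in 17, fell in 4 and was not called in 3, with a median log2 ratio of 0.48. These 24 pairs hold 23 genes, because POLE4 is closest to both LINC01291 and LINC01293. Beside those that fell, 28 of 76 rose, 28 fell and 20 were not called, with a median of -0.03. Beside those not called, 17 of 40 rose, 9 fell and 14 were not called, with a median of 0.13. Of all coding genes, 40.3% rose and 37.1% fell, and no difference between these shares was tested. Across the 140 pairs, Spearman's rho was 0.29 and Pearson's r 0.26. These are descriptions across genes that share the same 6 libraries.

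Some members lie beside one another. There were 6 pairs of members with starts within 100 kb. LINC00452 and LINC00565 start 40538 bases apart on opposite strands near GAS6, and both fell (log2 ratios -3.20 and -1.24). LINC00565 is now named SWINGN for an RNA described at the GAS6 locus, and GAS6 itself, a ligand of TAM receptor kinases, fell from 266 ± 16.7 to 195 ± 4.87 CPM (SD, n = 3 per group; log2 ratio -0.45, SE 0.06, edgeR adjusted p 2.19e-05). LINC01291 and LINC01293, 22110 bases apart on the same strand, both rose (0.77 and 0.90). LINC00346 fell (-1.92) and LINC00431, 95453 bases away, rose (1.07). LINC01128 fell (-1.13), and LINC00115, 2384 bases from it, was not called (-0.19). LINC00526 and LINC00667, 772 bases apart, were both called lower (-0.80 and -0.17), and LINC01116 and LINC01117, 221 bases apart, were both not called (-0.15 and 0.28).

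The 5 most abundant members by CPM changed little or rose. LINC02407, now named LNCOG, had 24.9, 23.1 and 22.7 CPM in siControl and 21.6, 20.6 and 21.7 CPM in siSON. Its log2 ratio of -0.14 (SE 0.07) was not called (edgeR adjusted p 0.0984), although its siControl values were all above its siSON values. LINC00667 gave 22.5, 23.5 and 23.2 CPM against 20.3, 21.0 and 20.5 CPM and was called just inside the threshold (log2 ratio -0.17, SE 0.07, edgeR adjusted p 0.0497). That call was lost under RLE factors, DESeq2 and cyclic loess, with no filter, and without any 1 of 5 libraries.

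LINC00963, an RNA studied in prostate cancer cells, had 18.9, 19.96 and 19.3 CPM against 21.9, 17.7 and 19.3 CPM, with a log2 ratio of 0.02 (SE 0.09, edgeR adjusted p 0.843), and its groups overlapped. LINC00839 rose from 12.4, 12.02 and 11.7 CPM to 21.7, 20.7 and 21.4 CPM (log2 ratio 0.82, SE 0.08, edgeR adjusted p 2.07e-06). CCNYL2, a pseudogene that starts 194 bases from LINC00839 in the other direction, fell by 1.97 (SE 0.45, edgeR adjusted p 0.00209). Per kilobase of exon, LINC02407 had the highest level of the 174, 18.7 CPM per kb over the groups, followed by LINC00674 with 11.8 and LINC01638 with 9.30 CPM per kb.

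LINC01578 is the RNA now called CHASERR, known for lowering the output of CHD2, the chromatin remodeler gene just downstream of it. It had 13.5, 14.3 and 14.9 CPM in siControl and 23.6, 20.2 and 23.8 CPM in siSON, with every siSON library above every siControl library. The log2 ratio was 0.66 (SE 0.09, edgeR adjusted p 3.89e-05). CHD2, chosen after its values were seen, rose from 96.7 ± 1.01 to 113 ± 4.10 CPM (SD, n = 3 per group; log2 ratio 0.22, SE 0.05, edgeR adjusted p 0.00262). The annotation places a coding readthrough model, AC013394.1, over LINC01578 on the same strand, and that row had 0.121 ± 0.0853 CPM in siControl (SD, n = 3).

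Other members were chosen after their values were seen. Among the risers, LINC00511, an RNA reported to bind the histone methyltransferase EZH2, went from 5.63, 6.26 and 7.62 CPM to 13.7, 12.9 and 14.95 CPM (log2 ratio 1.09, SE 0.12, edgeR adjusted p 1.01e-05). LINC02331 had 5, 5 and 7 counts in siControl and 45, 53 and 31 in siSON (log2 ratio 3.27, SE 0.40, edgeR adjusted p 1.95e-05). Its closest coding gene was BMP4, a growth factor gene that rose by 1.81 on the log2 scale. Among those that fell, LINC00294 had 21.6, 24.6 and 23.8 CPM against 9.75, 8.01 and 9.42 CPM (log2 ratio -1.36, SE 0.10, edgeR adjusted p 2.68e-07); it overlaps TCP11L1, which fell by 1.11, on its own strand, so some reads cannot be assigned. LINC00346, now PRECSIT and known as a p53-regulated RNA linked to STAT3 activation in carcinoma cells, had 6.36, 6.70 and 6.92 CPM against 1.22, 2.33 and 1.75 CPM (log2 ratio -1.92, SE 0.19, edgeR adjusted p 4.22e-06). LINC01843 had the lowest log2 ratio of all members, -3.98 (SE 0.57, edgeR adjusted p 6.89e-05), from 48, 42 and 61 counts to 0, 3 and 4.

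Beyond the RNAs that the naming rule selects, 17 more were called higher, with log2 ratios of 0.38 to 3.27 and no overlap between the groups in any of them. A further 81 were called lower, with log2 ratios of -3.98 to -0.35, and the groups were apart for 79 of these. The other 2 were LINC01786 and LINC01481. LINC01481 is now named PRANCR and is known for a role in renewing epidermal progenitors; it had 2.38, 2.06 and 1.58 CPM against 1.62, 1.36 and 1.10 CPM (log2 ratio -0.55, SE 0.22, edgeR adjusted p 0.0410). A second, low row of the same name overlaps it on the same strand. Among the 51 not called, log2 ratios ran from -1.01 for LINC01311 to 0.99 for LINC01913. LINC00632, the precursor of the circular RNA CDR1as, was one of these, with 3.22, 2.53 and 1.41 CPM against 2.26, 2.11 and 2.18 CPM (log2 ratio -0.12, SE 0.26, edgeR adjusted p 0.685); the circular form was not measured here.

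Gene structure was compared between the called classes. The median of the largest exon number of any transcript was 4 among LINC RNAs that rose, 4 among those that fell and 4 among those not called. Of 19 members with only single-exon transcripts, 10 fell and 2 rose. The 19 with 2 exons had 11 lower and 5 higher, the 61 with 3 to 4 exons had 30 and 11, and the 75 with 5 or more had 42 and 12. The gene span differed more. Those that fell had a median span of 11948 bases, those that rose 21237 and those not called 30826.

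When the 174 were divided by span into 3 equal sets, the shortest, up to 8683 bases, had a median log2 ratio of -1.36, with 37 lower and 9 higher. The middle set had -0.42 (27 lower and 10 higher) and the longest set -0.53 (29 lower and 11 higher). Coding genes between the same bounds had medians of -0.26, -0.11 and 0.21 from short to long. For coding genes with an average log2 CPM below 2, the medians were -0.96, -0.91 and -0.29. In the shortest set, 63.8% of the LINC RNAs were lower and 15.5% higher. Short coding genes had 48.7% lower and 28.3% higher, and those below that level 55.0% and 14.8%. Of the middle set 46.6% were lower, beside 43.7% of coding genes and 56.3% of the low ones. Of the longest set 29 of 58 were lower, beside 27.0% and 36.9%. No difference between these shares was tested.

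Most members lie in crowded parts of the annotation. Only 80 overlapped no other gene, 46 overlapped a gene on the same strand and 81 one on the other strand. Among the 80, 45 were called lower and 14 higher, with a median log2 ratio of -0.99. Stretches of at least 200 bases with at least 95% identity to another gene's transcript were found for 26 members, and those counts are uncertain where reads could map to both. Biotype also varied. The 138 filed as lincRNA had 80 lower (58.0%) and 20 higher (14.5%). The 36 filed otherwise, a mix of biotypes, had 13 lower (36.1%) and 10 higher (27.8%). Of all genes tested, 36.5% were lower and 35.2% higher, and no difference between these shares was tested.

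The machinery that turns over long non-coding RNAs in the nucleus was examined with a list of the nuclear exosome, its adaptor complexes NEXT, PAXT and TRAMP, the cap-binding complex and the exonuclease XRN2. Of 27 such genes tested, 14 rose and 8 fell, beside 35.2% and 36.5% of all genes, with a median log2 ratio of 0.18. Adaptor genes also went both ways. ZCCHC7, the RNA-binding subunit of TRAMP, rose from 15.1 ± 1.98 to 33.4 ± 1.07 CPM (log2 ratio 1.15, edgeR adjusted p 9.74e-07; SD, n = 3 each), and TENT4B, its poly(A) polymerase, rose by 0.96 (edgeR adjusted p 1.19e-06). SRRT, which links the cap-binding complex to the decay machinery, rose by 0.75 (edgeR adjusted p 1.32e-07), and ZFC3H1, the PAXT scaffold, by 0.46 (edgeR adjusted p 0.000262). Subunits of the exosome went both ways. EXOSC10, its nuclear nuclease, had a log2 ratio of -0.61 (edgeR adjusted p 0.000180), the core subunit EXOSC9 one of -0.63 (edgeR adjusted p 6.10e-06) and the core subunit EXOSC4 one of 0.84 (edgeR adjusted p 5.43e-06). C1D, a cofactor of EXOSC10, fell by 1.30 (edgeR adjusted p 4.16e-07). MTREX, the helicase shared by the adaptor complexes, rose by 0.24 (edgeR adjusted p 0.00719). Adaptor genes that fell were TENT4A of TRAMP (-0.30), PABPN1 of PAXT (-0.20) and ZCCHC8 of NEXT (-0.19), and RBM7 of NEXT was not called (0.12).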

How the data were processed

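Whole-number read counts per gene were deposited by the authors, not normalized and with 1 column per library. The build hg38 and cutadapt 1.16, STAR 2.5.2a, featureCounts 1.6.2 and DESeq2 1.28.1 are named, per the submitters' processing notes; the annotation release, strand setting and treatment of multi-mapping reads are not given in the sources used here. Identifiers matched GENCODE release 29 for 100% of rows and gene names for 99.51%, so structure and positions were taken from it.

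Columns were matched to libraries by title. Genes were kept with edgeR 4.0.16 filterByExpr (minimum count 10), scaled by TMM and compared with a robust quasi-likelihood fit (R 4.3.3) with group as the only term; Benjamini-Hochberg adjustment of p ran over 16591 genes, and those under 0.05 were called. SE is the absolute log2 fold change over the square root of F. CPM uses TMM-scaled library sizes. The fit was tested on simulated data. Alternatives used DESeq2 1.42.0, limma 3.58.1 (voom, and cyclic loess on log2 CPM with prior count 2), RLE factors, library size alone, other filters, a replicate block and omission of each library. Near-identical stretches were found with blastn 2.17.0. A level of 3 counts corresponds to 0.0430 to 0.0550 CPM before scaling and covers counting error only.

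The named RNAs are SON, the 10 largest rises and 10 largest falls among called members whose groups did not overlap and whose average log2 CPM was -1 or more, the 5 members with the highest mean CPM, members with 0 counts in a whole group (there were none), the rows nearest the threshold of 100 (2 inside, and 3 outside because of a tie), and the closest coding gene and divergent partner of each rise and fall; 1 item under this rule is not reported here. The members and lists were chosen with earlier results of these data known.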

Additional observations from a re-analysis of the deposited data

How the results depend on the processing

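The number of LINC RNAs called changed (123) was 110 to 115 when each library was left out in turn, with 25 to 27 higher and 85 to 89 lower; the median log2 fold change then ran from -0.76 (without siControl replicate 2) to -0.63 (without siControl replicate 1). Restricting the set lowered the counts by construction. A mean count of at least 50 left 103 members with 80 called, 60 of them lower; a summed count of at least 500 left 76 with 56 called, 15 higher and 41 lower (median -0.47); and members overlapping no gene left 80 with 59 called, 14 higher and 45 lower (median -0.99). The median was -0.90 under library size alone and -0.27 under cyclic loess; the cause was not tested. Leaving out both libraries numbered 1, an alternative chosen after seeing the data, gave -0.65. Under the other settings the counts stayed within 1.5 times the reported values. Of the 123 calls, 101 were shared with cyclic loess, 114 with DESeq2 and 118 with limma-voom, all in the same direction. LINC00963, not called, changed sign under library size alone (-0.18), with a mean count of at least 50 (-0.036), without both libraries numbered 1 (-0.11) and without a single library (-0.052 to 0.10). Same-numbered libraries had correlations of deviations from their group means of 0.194, 0.0461 and 0.118, and all 6 correlated best with their own number, a hint from the data and not from the design; with the replicate block 120 LINC RNAs were called, 29 higher and 91 lower. Depth limits the RNAs with under 20 counts per siSON library, whose remaining level is imprecise.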
